A study of Mus musculus with 6 samples.

Results

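The 10 genes of the endoplasmic reticulum (ER) described here are *Hspa5*, *Hsp90b1*, *Hyou1*, *Sdf2l1*, *Pdia4*, *Dnajb9*, *Creld2*, *Manf*, *Herpud1* and *Xbp1*. They were chosen by symbol as chaperones and targets of the unfolded protein response, with earlier results of these data known. All 10 were found among the 55401 genes of the table and among the 10051 genes that passed the filter on low values, a mean of at least 1 FPKM over 6 libraries (FPKM, a level scaled to transcript length and library size). Secreted and membrane proteins are folded in the ER, where hepatocytes make most plasma proteins. When unfolded proteins accumulate, the sensors IRE1, PERK and ATF6 signal to the nucleus, and genes of chaperones, disulfide isomerases and ER-associated degradation are induced, many of them through ATF6 and through XBP1, whose mRNA is spliced by IRE1. PERK slows translation and raises ATF4, a transcription factor of the integrated stress response.

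Poly(A) RNA was sequenced from livers of C57BL/6 mice in 3 groups of 2 libraries. The COS+APAP group (replicates 2 and 3) was pretreated with costunolide (COS), a sesquiterpene lactone found in plants, at 20 mg/kg, once at 12 h and once at 40 min ahead of an intraperitoneal dose of 400 mg/kg acetaminophen (APAP, paracetamol, a drug whose overdose injures hepatocytes) that acted for 6 h. The APAP group (replicates 1 and 3) had received 400 mg/kg APAP for 6 h without COS, and the control group (replicates 1 and 3) is labelled as normal liver, with no vehicle named. Age and sex of the mice are not labelled, nor is it said that a group's libraries stand for different mice, so p-values measure only the spread between libraries, which may be technical. One protocol sentence assigns the pretreatment to samples 5 and 6, which in the order of the records are labelled APAP; the groups here follow the titles, source names and treatment labels, and if that sentence were right, COS+APAP and APAP would be exchanged throughout. Both COS+APAP titles begin their number with 2 and all others with 1, so COS cannot be told apart from anything that this number stands for.

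The libraries held between 71115112 and 76669799 estimated counts each. Mitochondrial genes took 11.8% and 10.8% of the counts in COS+APAP, 8.28% and 7.37% in APAP, and 12.8% and 16.1% in control, with no overlap between the groups, and the part of this difference in the members' values was not tested. Libraries of a group correlated at r = 0.973 to 0.979 across the tested genes on the log2(FPKM + 1) scale and libraries of different groups at 0.862 to 0.939, where genes are not independent replicates. All 15 hepatocyte markers found in the table passed the filter, while 13 of 16 markers of exocrine pancreas, a neighbouring tissue rich in ER chaperones, were listed at 0 in every library. Each member had at least 727 estimated counts in every library.

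Promoter sequences are shown because the members carry different response elements. The levels of the members, given below, moved in opposite directions, and a link between element and direction was not tested. The ER stress response element (ERSE) is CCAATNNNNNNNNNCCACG, which ATF6 and XBP1 bind together with the factor NF-Y, and its variant ERSE-II is ATTGGNCCACG. The core of the unfolded protein response element (UPRE) was searched as TGACGTG and that of the amino acid response element, which ATF4 binds, as TTGCATCA. RefSeq promoters of build GRCm38.p6, 250 bases before to 50 after a start site, were found for 8 of the 10 members and not for *Hyou1* and *Manf*. The bases before the start site of 4 members are printed 5′ to 3′ on the gene's strand, with full matches to these elements on either strand in capitals. *Sdf2l1*, the member that fell most after APAP, has no such match in this window, and neither has *Dnajb9*, which rose most and is not printed. Only these exact letters were searched, so variant forms of the elements were not counted.
*Hspa5*, chr2:34771840-34772089, plus strand: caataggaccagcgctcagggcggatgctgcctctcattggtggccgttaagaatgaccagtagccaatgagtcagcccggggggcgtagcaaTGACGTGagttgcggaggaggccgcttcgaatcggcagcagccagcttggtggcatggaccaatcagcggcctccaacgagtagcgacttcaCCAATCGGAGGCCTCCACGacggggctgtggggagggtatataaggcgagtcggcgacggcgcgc
*Herpud1*, chr8:94386179-94386428, plus strand: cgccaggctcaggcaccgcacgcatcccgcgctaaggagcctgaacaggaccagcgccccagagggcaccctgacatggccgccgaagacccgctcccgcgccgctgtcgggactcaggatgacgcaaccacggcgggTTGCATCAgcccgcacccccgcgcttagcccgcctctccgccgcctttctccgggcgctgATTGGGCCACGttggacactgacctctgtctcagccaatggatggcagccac
*Hsp90b1*, chr10:86705445-86705694, minus strand: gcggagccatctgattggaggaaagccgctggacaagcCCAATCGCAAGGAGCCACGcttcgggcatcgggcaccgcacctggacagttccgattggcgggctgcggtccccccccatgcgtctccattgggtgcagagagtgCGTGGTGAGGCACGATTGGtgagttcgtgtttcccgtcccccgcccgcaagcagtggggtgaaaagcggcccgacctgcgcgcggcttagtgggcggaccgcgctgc
*Sdf2l1*, chr16:17132384-17132633, minus strand: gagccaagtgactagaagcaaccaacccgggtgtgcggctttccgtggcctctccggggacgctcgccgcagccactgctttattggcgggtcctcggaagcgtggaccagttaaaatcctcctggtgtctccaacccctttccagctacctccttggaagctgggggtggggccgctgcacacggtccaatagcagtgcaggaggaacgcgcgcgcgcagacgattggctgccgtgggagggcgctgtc

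A full ERSE was found in 3 of the 8 promoters, those of *Hspa5* (bases -65 to -47 from the start site), *Hsp90b1* (-212 to -194, and on the other strand -107 to -89) and *Creld2* (on the other strand, -126 to -108), against 39 of all 32851 promoters in the table (0.119%). *Herpud1* held the ERSE-II at -52 to -42, a motif of 12 promoters in all (0.0365%), and an amino acid response core at -112 to -105, found in 0.895% of promoters. The UPRE core stood at -157 to -151 of *Hspa5* and in 2.01% of all promoters. *Sdf2l1*, *Dnajb9* and *Pdia4* held separate CCAAT and CCACG letters and no full element in this window, and *Xbp1* held neither. For *Pdia4* alone the bases searched after the RefSeq start site were not found in a transcript of the GENCODE annotation. Its window therefore rests on a start site without that check. CCAAT and CCACG are parts of the ERSE, and alone occur in 37.4% and 32.8% of promoters. The members with an ERSE include a gene that was higher and others that were lower after APAP, as the levels below show.

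**Figure D1:**
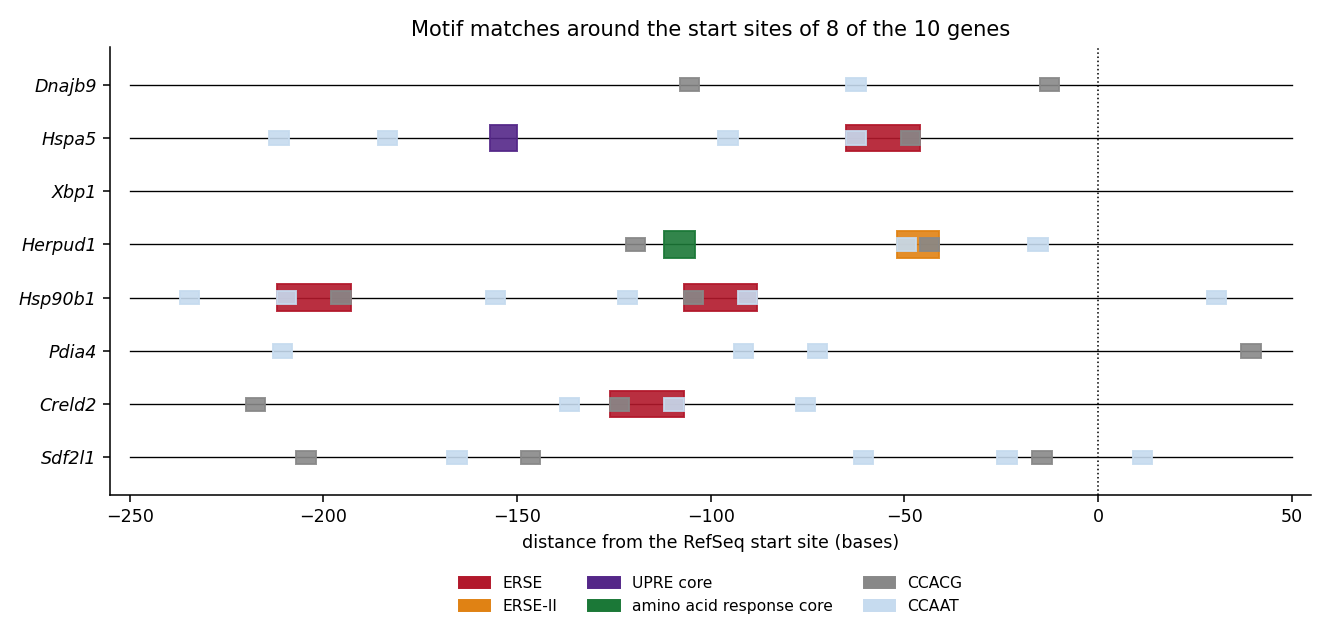
Matches to 6 motifs on either strand in the window from 250 bases before to 50 bases after the RefSeq start site (dotted line) of 8 members, ordered from the highest to the lowest log2 fold change of APAP over control. Tall boxes are full elements and low boxes are their CCAAT and CCACG parts; full ERSE matches stand in *Hspa5*, *Hsp90b1* and *Creld2*.

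In APAP livers against control livers 5 members rose and 5 fell, which left no member uncalled at an adjusted p below 0.05; of all 10051 tested genes 45.4% were called, 23.3% higher and 22.1% lower. BiP (*Hspa5*), its co-chaperone *Dnajb9*, *Hyou1*, *Herpud1* and *Xbp1* were the higher genes, and *Hsp90b1*, *Pdia4*, *Creld2*, *Manf* and *Sdf2l1* were the lower ones. In COS+APAP livers against APAP livers *Sdf2l1*, *Manf* and *Pdia4* rose, *Xbp1* fell and 6 members were not called (all tested genes: 22.4% called, 11.2% higher and 11.1% lower). In COS+APAP livers against control livers *Dnajb9*, *Hspa5* and *Hyou1* rose, *Creld2* and *Sdf2l1* fell and 5 members were not called (all tested genes: 21.0% called, 10.7% higher and 10.3% lower). The median log2 fold change of the members was -0.18 for APAP over control, 0.30 for COS+APAP over APAP and 0.11 for COS+APAP over control, and that of all tested genes lay between 0.00 and 0.02 in these comparisons. Without single libraries the called members of COS+APAP against APAP fell to 2 (COS+APAP replicate 2, COS+APAP replicate 3 or APAP replicate 3 left out), and those of COS+APAP against control to 0 without control replicate 3 and to 1 without COS+APAP replicate 2 or 3, as given gene by gene below. Since the comparisons share libraries, their values are given side by side and were not correlated.

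**Figure D2:**
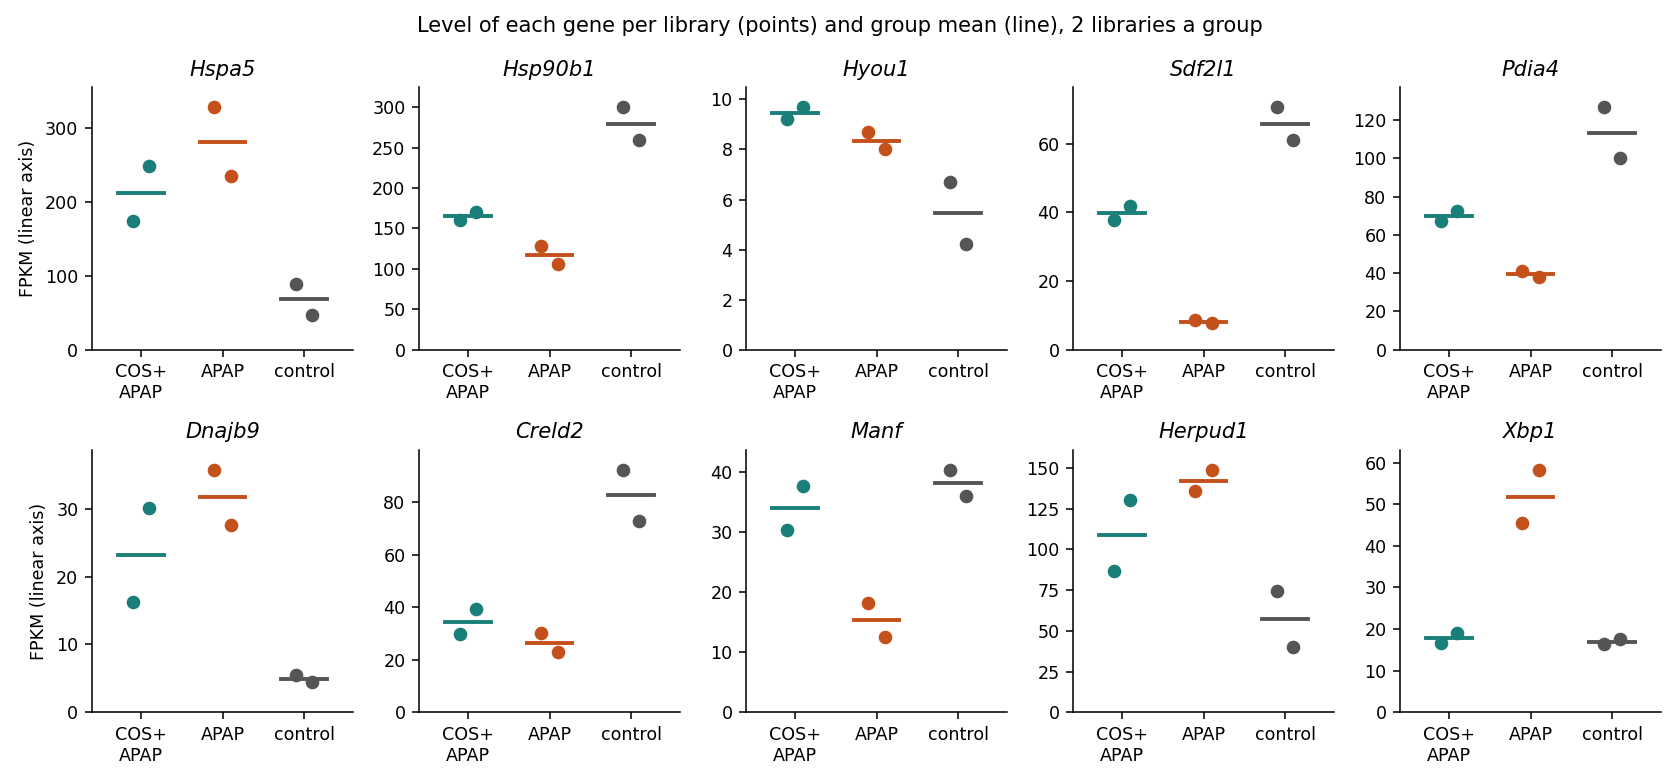
FPKM of the 10 members (linear axes from 0) in each library of COS+APAP, APAP and control; points are libraries and lines the means of 2. *Sdf2l1* stood at 7.80 and 8.58 FPKM in APAP, below every library of the other groups, and *Xbp1* stood highest in both APAP libraries.

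*Hspa5* encodes BiP, the Hsp70 chaperone of the ER lumen that binds unfolded chains and holds the stress sensors inactive (ENSMUSG00000026864, chromosome 2, 34771970 to 34777547). Its level was 175 and 248 FPKM in COS+APAP, 328 and 235 FPKM in APAP, and 89.2 and 46.9 FPKM in control. Both APAP libraries and both COS+APAP libraries lay above both controls, while COS+APAP and APAP overlapped. *Hspa5* averaged 281 ± 65.6 FPKM in APAP and 68.0 ± 29.9 FPKM in control (SD, n = 2 each), and rose by a log2 fold change of 2.19 ± 0.39 (SE), or 4.55-fold (edgeR adjusted p = 0.00829). Between COS+APAP and APAP the log2 fold change was -0.40 ± 0.37 (edgeR adjusted p = 0.478). Against control it was 1.79 ± 0.39 in COS+APAP (edgeR adjusted p = 0.0295). That p was 0.0877 in edgeR without control replicate 3, 0.0585 without COS+APAP replicate 2 and 0.119 without COS+APAP replicate 3, where the call was lost.

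*Dnajb9* encodes a J-domain co-chaperone that stimulates BiP and feeds back on IRE1 (ENSMUSG00000014905, chromosome 12, 44205559 to 44210326). It was at 16.3 and 30.1 FPKM in COS+APAP, 35.7 and 27.6 FPKM in APAP, and 5.43 and 4.48 FPKM in control. The control libraries were the lowest of all 6, and COS+APAP replicate 3 lay within the range of APAP. The log2 fold change of APAP over control, 2.82 ± 0.35 (edgeR adjusted p = 0.00309), was the highest of the members. It was -0.43 ± 0.33 for COS+APAP over APAP (edgeR adjusted p = 0.375) and 2.39 ± 0.34 for COS+APAP over control (edgeR adjusted p = 0.0108, and 0.0645 without control replicate 3).

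*Hyou1* encodes a large Hsp70 relative that serves BiP as a nucleotide exchange factor (ENSMUSG00000032115, chromosome 9, 44379490 to 44392369). Its levels were low and close together, at 9.20 and 9.68 FPKM in COS+APAP, 8.69 and 8.01 FPKM in APAP, and 6.70 and 4.24 FPKM in control. The groups did not overlap, and each COS+APAP library stood above each APAP library by less than 2 FPKM. *Hyou1* rose by 0.75 ± 0.23 on the log2 scale in APAP against control (edgeR adjusted p = 0.0463), or 0.45 without control replicate 3 and 1.13 without control replicate 1. That call was lost with library totals or upper quartile factors for scaling (0.0756 and 0.0635), with limma (0.0652 and 0.0689 with pseudocounts of 1 and 0.1), without the filter (0.0800), with the 4 libraries alone (0.0818), and without control replicate 3 (0.0818), COS+APAP replicate 2 (0.0749) or 3 (0.0756), or APAP replicate 1 (0.173) or 3 (0.0973). For COS+APAP over control it was 0.94 ± 0.23 (edgeR adjusted p = 0.0425), a call lost without any single library but control replicate 1 (adjusted p between 0.0722 and 0.152 without control replicate 3, either COS+APAP or either APAP library), with library totals (0.0598), with limma (0.0531 and 0.0576), without the filter (0.0751) and with the 4 libraries alone (0.0693). For COS+APAP over APAP it was 0.19 ± 0.23 (edgeR adjusted p = 0.578).

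*Sdf2l1* encodes a partner of the J protein *Dnajb11* in a complex that keeps unfolded chains soluble in the ER (ENSMUSG00000022769, chromosome 16, 17130138 to 17132383). It was at 37.8 and 41.7 FPKM in COS+APAP, 8.58 and 7.80 FPKM in APAP, and 70.5 and 61.1 FPKM in control. The groups were apart, with APAP lowest and COS+APAP between APAP and control. *Sdf2l1* fell by 2.87 ± 0.15 on the log2 scale in APAP against control, 7.30-fold (edgeR adjusted p = 0.00089), and was 4.91-fold higher in COS+APAP than in APAP, a log2 fold change of 2.30 ± 0.15 (edgeR adjusted p = 0.00341). In size these were the largest changes of a member in the 2 comparisons, close to the rise of *Dnajb9* in the first, and both calls held without each library. Against control *Sdf2l1* fell by 0.57 ± 0.14 in COS+APAP (edgeR adjusted p = 0.0427), a call that was lost without any single library (adjusted p between 0.0568 without APAP replicate 1 and 0.162 without COS+APAP replicate 2), without the filter (0.0949) and with the 4 libraries alone (0.0519).

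*Manf* encodes a small ER protein that binds BiP and can be secreted under stress (ENSMUSG00000032575, chromosome 9, 106838312 to 106891915). It was at 30.4 and 37.7 FPKM in COS+APAP, 18.2 and 12.5 FPKM in APAP, and 40.4 and 36.0 FPKM in control. COS+APAP overlapped control, and both APAP libraries lay below every other library. *Manf* fell by 1.17 ± 0.23 in APAP against control (edgeR adjusted p = 0.0116) and rose by 1.16 ± 0.23 in COS+APAP against APAP (edgeR adjusted p = 0.0240), on the log2 scale. The second call was lost without COS+APAP replicate 2 (0.0629) or 3 (0.0942) or APAP replicate 3 (0.0589). Between COS+APAP and control the log2 fold change was -0.01 ± 0.23 (edgeR adjusted p = 0.980), with a sign that turned under other settings.

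*Hsp90b1* encodes GRP94, the Hsp90 chaperone of the ER (ENSMUSG00000020048, chromosome 10, 86690209 to 86705509). It was the most abundant member in control, at 161 and 171 FPKM in COS+APAP, 128 and 106 FPKM in APAP, and 300 and 259 FPKM in control. No group overlapped another, and the controls were highest. *Hsp90b1* fell by 1.11 ± 0.16 on the log2 scale in APAP against control, 2.16-fold (edgeR adjusted p = 0.00476). The log2 fold change was 0.52 ± 0.16 for COS+APAP over APAP (edgeR adjusted p = 0.0741; 0.0369 with upper quartile factors and 0.0273 with DESeq2) and -0.60 ± 0.16 for COS+APAP over control (edgeR adjusted p = 0.0533; between 0.00556 and 0.0468 with DESeq2, limma, library totals, upper quartile factors or a filter of 5 FPKM).

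*Pdia4* encodes a protein disulfide isomerase with several thioredoxin domains (ENSMUSG00000025823, chromosome 6, 47796141 to 47813430). It was at 67.3 and 72.5 FPKM in COS+APAP, 41.2 and 38.2 FPKM in APAP, and 127 and 100.1 FPKM in control. The order of the groups was that of *Sdf2l1*, with no overlap. *Pdia4* fell by 1.38 ± 0.16 in APAP against control (edgeR adjusted p = 0.00257) and rose by 0.83 ± 0.16 in COS+APAP against APAP (edgeR adjusted p = 0.0209), on the log2 scale. The second call was lost without COS+APAP replicate 2 (0.0691) or 3 (0.0827) or APAP replicate 1 (0.0767) or 3 (0.0819). For COS+APAP over control the log2 fold change was -0.54 ± 0.16 (edgeR adjusted p = 0.0612; between 0.0120 and 0.0304 with DESeq2, limma or library totals).

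*Creld2* encodes an ER protein of disulfide exchange known to be induced by ER stress (ENSMUSG00000023272, chromosome 15, 88819646 to 88826683). It was at 29.7 and 39.3 FPKM in COS+APAP, 30.2 and 22.9 FPKM in APAP, and 92.2 and 72.9 FPKM in control. Both groups given APAP lay below control and overlapped each other. *Creld2* fell by 1.50 ± 0.24 in APAP against control (edgeR adjusted p = 0.00594) and by 1.10 ± 0.24 in COS+APAP against control (edgeR adjusted p = 0.0293), on the log2 scale. The second call was lost without the filter (0.0518) and without control replicate 1 (0.0975) or 3 (0.0645) or COS+APAP replicate 2 (0.112) or 3 (0.0681). Between COS+APAP and APAP the log2 fold change was 0.40 ± 0.23 (edgeR adjusted p = 0.267).

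*Herpud1* encodes an ER membrane protein that helps assemble the degradation machinery for misfolded proteins (ENSMUSG00000031770, chromosome 8, 94386438 to 94395377). It was at 87.0 and 130.3 FPKM in COS+APAP, 136 and 149 FPKM in APAP, and 74.4 and 40.2 FPKM in control. The groups did not overlap, with APAP highest, though COS+APAP replicate 3 lay just under APAP replicate 1. *Herpud1* rose by 1.44 ± 0.35 on the log2 scale in APAP against control (edgeR adjusted p = 0.0207). Without control replicate 3, APAP replicate 1 or APAP replicate 3 that edgeR adjusted p was 0.0529, 0.0697 or 0.0730, and the call was lost. It did not pass for COS+APAP over APAP (-0.37 ± 0.34, edgeR adjusted p = 0.467) or over control (1.08 ± 0.34, edgeR adjusted p = 0.0788; 0.0144 with DESeq2 and 0.0427 without control replicate 1).

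*Xbp1* encodes the transcription factor that IRE1 activates by splicing its mRNA (ENSMUSG00000020484, chromosome 11, 5520659 to 5525893). The gene-level values used here hold spliced and unspliced forms together. *Xbp1* was at 16.6 and 19.1 FPKM in COS+APAP, 45.4 and 58.2 FPKM in APAP, and 16.4 and 17.6 FPKM in control. Both APAP libraries stood apart, and COS+APAP and control overlapped. *Xbp1* rose by 1.74 ± 0.15 in APAP against control (edgeR adjusted p = 0.00155) and fell by 1.51 ± 0.15, 2.85-fold, in COS+APAP against APAP (edgeR adjusted p = 0.00635), and both calls held without each library. For COS+APAP over control the log2 fold change was 0.23 ± 0.15 (edgeR adjusted p = 0.311).

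**Figure D3:**
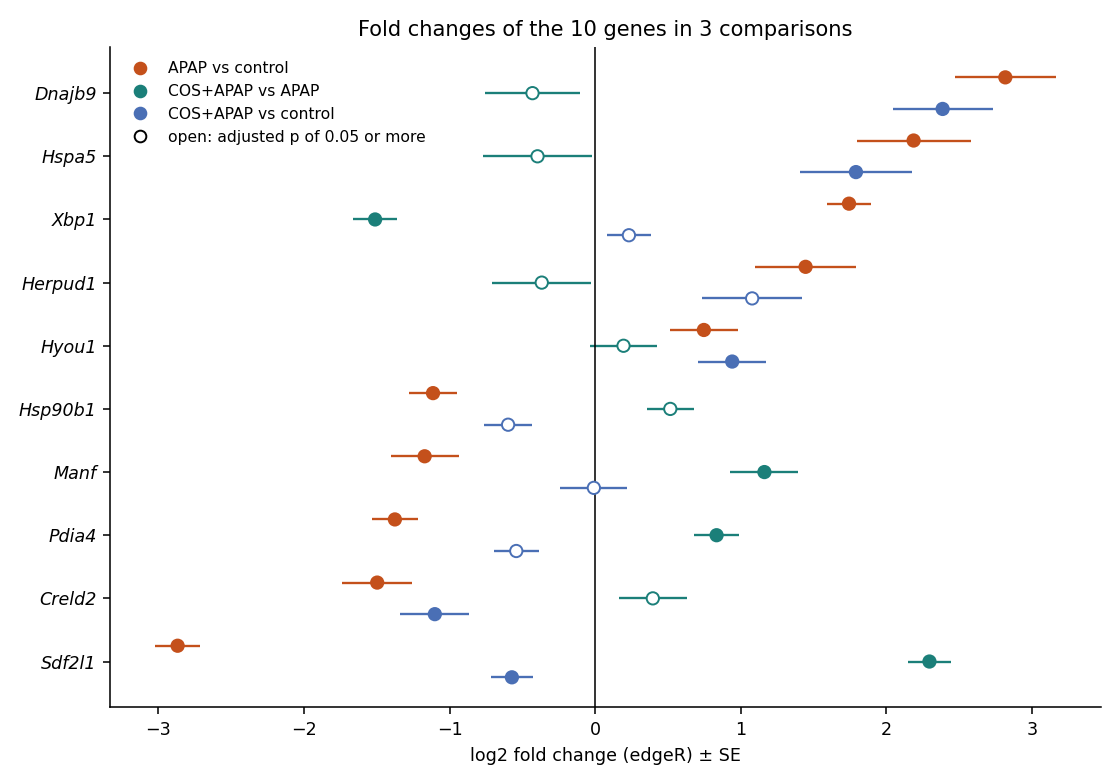
Log2 fold changes (edgeR) of the 10 members with standard errors in 3 comparisons, ordered by APAP over control; filled points have an adjusted p below 0.05. The values of APAP over control span -2.87 (*Sdf2l1*) to 2.82 (*Dnajb9*), and *Sdf2l1*, *Manf*, *Pdia4* and *Xbp1* are the filled points of COS+APAP over APAP.

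The makeup of the 10 members, *Herpud1* and *Xbp1* among them, differed between groups, while their sum overlapped. The 10 members added up to 629.7 and 799 FPKM in COS+APAP, 779.8 and 665 FPKM in APAP, and 821 and 642 FPKM in control. *Hspa5* held 27.7% and 31.0% of this sum in COS+APAP, 42.0% and 35.3% in APAP, and 10.9% and 7.29% in control. *Hsp90b1* held 25.5% and 21.3% in COS+APAP, 16.5% and 15.9% in APAP, and 36.5% and 40.3% in control. By mean level *Hspa5* was at rank 1 of the members in COS+APAP and in APAP and at rank 4 in control, where its libraries overlapped those of its neighbours *Creld2* and *Sdf2l1*. *Sdf2l1* was at rank 10 in APAP, its libraries overlapping those of *Hyou1* just above it, and at rank 5 in COS+APAP and in control. In control the lowest levels were those of *Hyou1* and *Dnajb9*, which overlapped.

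Within a library, levels relative to *Hspa5* do not depend on the scaling between libraries. *Sdf2l1* stood at 0.216 and 0.168 of the *Hspa5* FPKM in COS+APAP, 0.0262 and 0.0332 in APAP, and 0.791 and 1.3 in control. *Hsp90b1* stood at 0.920 and 0.687 times *Hspa5* in COS+APAP, 0.392 and 0.451 in APAP, and 3.36 and 5.53 in control. For *Sdf2l1*, *Hsp90b1*, *Pdia4*, *Creld2*, *Manf* and *Hyou1* APAP was lowest and COS+APAP lay between APAP and control, with no overlap. These ratios share their denominator, so their common order is not a set of separate observations. *Hspa5* averaged 211 FPKM in COS+APAP, 281 in APAP and 68.0 in control. *Hyou1* itself averaged 9.44, 8.35 and 5.47 FPKM, lowest in control, so its ratio followed the level of *Hspa5*. *Dnajb9* stood at 0.0931 and 0.121 in COS+APAP, 0.109 and 0.118 in APAP, and 0.0609 and 0.0956 in control, so that COS+APAP overlapped both other groups and control lay below APAP. *Xbp1* was lowest relative to *Hspa5* in COS+APAP, at 0.0952 and 0.0771, against 0.139 and 0.248 in APAP and 0.183 and 0.376 in control. With 2 libraries against 2 an exact two-sided permutation test of a single ratio cannot give a p below 0.33, and none was made.

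**Figure D4:**
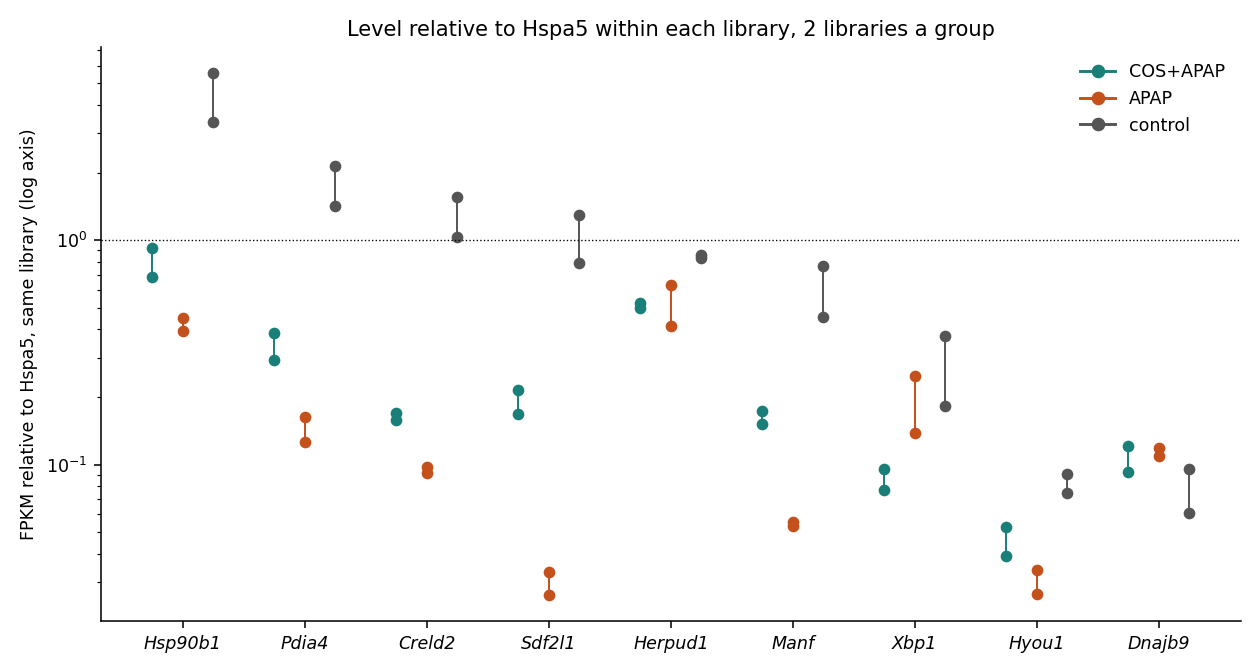
FPKM of 9 members divided by that of *Hspa5* in the same library (log axis), ordered by their mean in control; points are libraries, lines join the 2 libraries of a group, and the dotted line marks a level equal to *Hspa5*. *Sdf2l1* runs from 0.0262 in an APAP library to 1.3 in a control library, while for *Dnajb9* all libraries lie between 0.0609 and 0.121.

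The wider ER and stress genes were described by 6 lists of roles, together 141 tested genes without the members. Of these, 43 rose and 31 fell in APAP against control (30.5% and 22.0%; all tested genes 23.3% and 22.1%), a split that turned with the scaling, to 32 and 45 with library totals and 34 and 43 with upper quartile factors. In COS+APAP against APAP 39 rose and 13 fell (27.7% and 9.22%; all tested genes 11.2% and 11.1%), and in COS+APAP against control 37 rose and 10 fell (26.2% and 7.09%; all tested genes 10.7% and 10.3%), or 25 and 17 with library totals. The counts of higher genes dropped without single libraries: for APAP over control to 27 without control replicate 3 or APAP replicate 1, for COS+APAP over APAP to 12 and 16 without COS+APAP replicates 2 and 3 and to 15 and 22 without APAP replicates 1 and 3, and for COS+APAP over control to 22 and 15 without control replicates 1 and 3 and to 21 and 16 without COS+APAP replicates 2 and 3. The counts of lower genes dropped to 6 in COS+APAP against APAP without COS+APAP replicate 2 or APAP replicate 1, and in COS+APAP against control to 3 without either control library or COS+APAP replicate 3 and to 5 without COS+APAP replicate 2.

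Among 33 other folding factors (chaperones, disulfide isomerases and prolyl isomerases) 4 rose and 12 fell in APAP against control, with a median log2 fold change of -0.30, and 15 rose and 1 fell in COS+APAP against APAP, with a median of 0.39. In COS+APAP against control 4 rose and 1 fell (median 0.03), where the median was -0.15 and the counts 2 and 3 with library totals. With TMM scaling the higher and lower shares of the 33 were 12.1% and 36.4%, 45.5% and 3.03%, and 12.1% and 3.03%. Those of all tested genes were 23.3% and 22.1%, 11.2% and 11.1%, and 10.7% and 10.3% in these comparisons. *Calr* encodes calreticulin, a lectin chaperone for glycoproteins, and stood at 391 and 389.8 FPKM in COS+APAP, 154 and 156 FPKM in APAP, and 542 and 473 FPKM in control. Its libraries did not overlap between groups, and it fell by 1.58 in APAP against control and rose by 1.35 in COS+APAP against APAP on the log2 scale (edgeR adjusted p = 0.00144 and 0.00589). *Pdia3*, the disulfide isomerase that works with calreticulin, fell by 1.53 in APAP against control (edgeR adjusted p = 0.00143). The prolyl isomerase *Fkbp11* fell by 1.85 in APAP against control (edgeR adjusted p = 0.00313) and rose by 1.48 in COS+APAP against APAP (edgeR adjusted p = 0.0136; 0.0622 at most without COS+APAP replicate 2 or APAP replicate 1). The single gene that fell in COS+APAP against APAP was *Tmx1* (-0.58, edgeR adjusted p = 0.0468; up to 0.180 without either library of these groups). *Qsox1*, a sulfhydryl oxidase of the secretory path, was one of the 4 that rose after APAP, at 62.1 and 63.3 FPKM in COS+APAP, 63.1 and 62.2 FPKM in APAP, and 23.95 and 17.5 FPKM in control. It rose by 1.73 in APAP and by 1.75 in COS+APAP against control (edgeR adjusted p = 0.00205 and 0.00501). *Ero1l*, the oxidase that recharges disulfide isomerases, rose by 0.87 in APAP against control (edgeR adjusted p = 0.0127; up to 0.0640 without either control library or APAP replicate 1).

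Of 28 genes of ER-associated degradation 9 rose and 7 fell in APAP against control, 7 rose and 1 fell in COS+APAP against APAP, and 6 rose and 4 fell in COS+APAP against control. These are 32.1% higher and 25% lower, 25% and 3.57%, and 21.4% and 14.3% of the 28. Of all tested genes the shares were 23.3% and 22.1%, 11.2% and 11.1%, and 10.7% and 10.3%. With library totals the first and last splits of the 28 genes turned, to 5 higher and 8 lower and to 3 higher and 5 lower. The channel component *Derl3* was at 3.27 and 4.28 FPKM in COS+APAP, 0.07 and 0.36 FPKM in APAP, and 10.1 and 4.73 FPKM in control. APAP was lowest, and the fold changes were -4.89 ± 0.79 for APAP over control and 4.07 ± 0.77 for COS+APAP over APAP on the log2 scale (edgeR adjusted p = 0.0062 and 0.0211). The second call was lost without COS+APAP replicate 2, COS+APAP replicate 3 or APAP replicate 1, at adjusted p up to 0.0706. *Derl2*, of the same family, fell by 1.14 in APAP against control (edgeR adjusted p = 0.00218). Of the cytosolic extraction machinery, the segregase *Vcp* rose by 0.92 and its cofactor *Nploc4* by 1.77 in APAP against control, and *Nploc4* fell by 0.95 in COS+APAP against APAP (edgeR adjusted p = 0.00694, 0.00101 and 0.00756). *Edem2*, which trims mannose from misfolded glycoproteins, rose by 1.17 in COS+APAP against APAP (edgeR adjusted p = 0.00729). *Sel1l*, the adaptor of the ubiquitin ligase HRD1, rose by 1.18 in COS+APAP against control (edgeR adjusted p = 0.00964).

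Of 26 genes of translocation and signal peptide processing 2 rose and 8 fell in APAP against control (median log2 fold change -0.15), 9 rose and 1 fell in COS+APAP against APAP (0.39), and 6 rose and 2 fell in COS+APAP against control (0.33). As shares these are 7.69% higher and 30.8% lower, 34.6% and 3.85%, and 23.1% and 7.69%. All tested genes had 23.3% and 22.1%, 11.2% and 11.1%, and 10.7% and 10.3%. With library totals 2 of the 26 genes rose and 11 fell in APAP against control. For COS+APAP against control library totals gave 3 higher and 2 lower, with a median of 0.16. Limma gave these same counts at either pseudocount. The translocon subunit *Sec61b* was at 39.8 and 34.8 FPKM in COS+APAP, 16.4 and 15.2 FPKM in APAP, and 41.4 and 43.0 FPKM in control. Both APAP libraries were far below the rest, with log2 fold changes of -1.27 for APAP over control and 1.25 for COS+APAP over APAP (edgeR adjusted p = 0.00185 and 0.00635). The channel subunit *Sec61a1* rose by 1.05 and the signal peptidase subunit *Sec11c* by 1.08 in COS+APAP against APAP (edgeR adjusted p = 0.00724 and 0.00821). *Spcs2*, of the same peptidase, fell by 2.38 in APAP and by 1.75 in COS+APAP against control (edgeR adjusted p = 0.000949 and 0.0032). *Srpr*, the receptor of the signal recognition particle, rose by 0.90 in APAP against control (edgeR adjusted p = 0.00544).

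Of 21 genes of export from the ER 7 rose and 2 fell in APAP against control, 5 rose and 3 fell in COS+APAP against APAP, and 5 rose and 2 fell in COS+APAP against control. The shares higher and lower were 33.3% and 9.52%, 23.8% and 14.3%, and 23.8% and 9.52%. For all tested genes they were 23.3% and 22.1%, 11.2% and 11.1%, and 10.7% and 10.3%. With library totals the splits of the 21 genes against control were 5 and 5 and 3 and 3. *Kdelr2*, a receptor that returns escaped chaperones from the Golgi, was at 98.8 and 85.5 FPKM in COS+APAP, 109.9 and 120 FPKM in APAP, and 44.2 and 44.0 FPKM in control. Control was lowest, and *Kdelr2* rose by 1.52 in APAP and by 1.22 in COS+APAP against control (edgeR adjusted p = 0.00126 and 0.0043). The coat subunit *Sec24d* rose by 0.94 and 1.25 in the same comparisons (edgeR adjusted p = 0.00379 and 0.00507). *Lman1*, a cargo receptor for clotting factors, fell by 0.85 in APAP against control and rose by 0.85 in COS+APAP against APAP (edgeR adjusted p = 0.00243 and 0.00768).

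**Figure D5:**
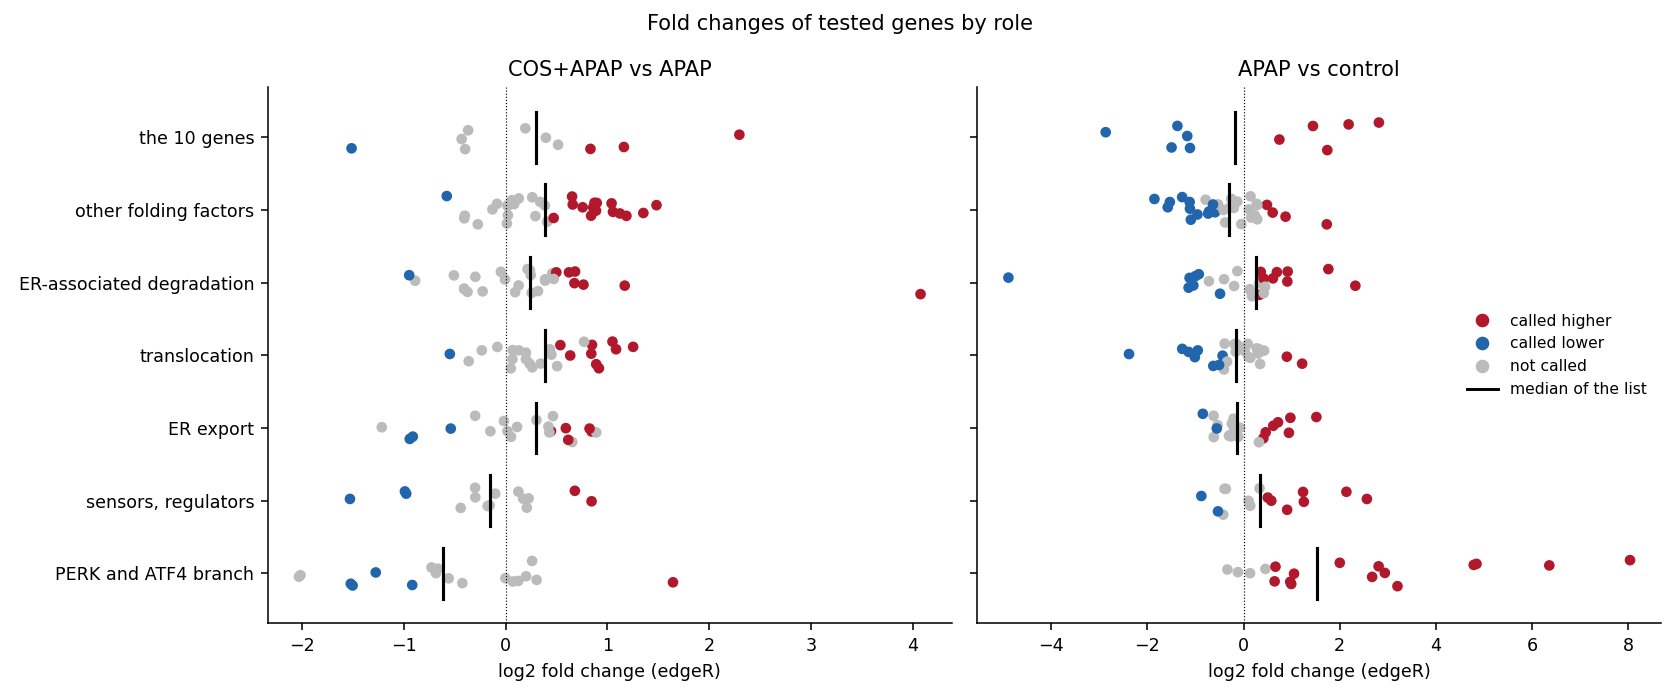
Log2 fold changes (edgeR) of tested genes by role for COS+APAP over APAP (left) and APAP over control (right); each point is a gene, coloured by its call, and the black bar is the median of the list. Other folding factors have 15 genes called higher on the left and 12 called lower on the right, and the PERK and ATF4 branch has 14 called higher on the right.

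The genes of the sensors were higher after APAP, at low levels. *Ern1* (IRE1) was at 2.73 and 3.02 FPKM in COS+APAP, 7.69 and 9.14 FPKM in APAP, and 3.80 and 3.95 FPKM in control. APAP was highest and COS+APAP lowest, as *Ern1* rose by 1.26 ± 0.13 in APAP against control and fell by 1.53 ± 0.13 in COS+APAP against APAP (edgeR adjusted p = 0.00196 and 0.00555), and did not pass for COS+APAP over control (-0.27 ± 0.13, edgeR adjusted p = 0.179). *Eif2ak3* (PERK) was at 1.76 and 2.16 FPKM in COS+APAP, 4.15 and 3.66 FPKM in APAP, and 0.99 and 0.95 FPKM in control. It rose by 2.14 ± 0.17 in APAP against control and fell by 0.97 ± 0.17 in COS+APAP against APAP (edgeR adjusted p = 0.00144 and 0.0175), the second call lost without COS+APAP replicate 2 or APAP replicate 1 (up to 0.0813). *Atf6* was at 5.48 and 5.50 FPKM in COS+APAP, 6.95 and 6.73 FPKM in APAP, and 3.59 and 2.78 FPKM in control. It rose by 1.24 ± 0.16 in APAP against control (edgeR adjusted p = 0.00321) and by 0.94 ± 0.16 in COS+APAP against control (edgeR adjusted p = 0.0148; up to 0.0728 without either COS+APAP library), and was not called between COS+APAP and APAP (-0.30 ± 0.15, edgeR adjusted p = 0.213). Of all 15 sensors and regulators tested 7 rose and 2 fell in APAP against control, 2 rose and 3 fell in COS+APAP against APAP, and 5 rose and 1 fell in COS+APAP against control (5 and 4 for the first with library totals). With TMM scaling these were 46.7% and 13.3%, 13.3% and 20%, and 33.3% and 6.67% of the list. All tested genes gave 23.3% and 22.1%, 11.2% and 11.1%, and 10.7% and 10.3%. *Creb3l2*, a membrane-bound transcription factor of the secretory path, rose by 2.57 in APAP against control (edgeR adjusted p = 0.00193), and *Nfyb*, a subunit of NF-Y, fell by 0.88 (edgeR adjusted p = 0.00384). *Wfs1*, an ER membrane protein, rose by 1.42 in COS+APAP against control (edgeR adjusted p = 0.00648).

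Of 18 tested genes of the PERK and ATF4 branch 14 rose and 0 fell in APAP against control (median log2 fold change 1.53), 1 rose and 4 fell in COS+APAP against APAP (-0.61), and 11 rose and 0 fell in COS+APAP against control (1.24) in edgeR. In percent the branch had 77.8 higher and 0 lower, 5.56 and 22.2, and 61.1 and 0. All tested genes had 23.3 and 22.1, 11.2 and 11.1, and 10.7 and 10.3. For each count of 0 in the branch, 1 gene was lower at an unadjusted edgeR p below 0.05, and DESeq2 and limma each called 1 lower. With library totals 13 rose and 1 fell in APAP against control, and 10 rose and 2 fell in COS+APAP against control. Upper quartile factors called 1 lower in APAP against control. *Atf3*, a transcription factor of acute stress, was at 11.1 and 99.6 FPKM in COS+APAP, 246 and 213 FPKM in APAP, and 0.88 and 1.04 FPKM in control. The COS+APAP libraries differed widely from each other and lay between the other groups. *Atf3* rose by 8.04 ± 1.22 in APAP and by 6.01 ± 1.11 in COS+APAP against control on the log2 scale (edgeR adjusted p = 0.00511 and 0.02), the second call lost without control replicate 1 or 3 (up to 0.102). Without COS+APAP replicate 3 the value of COS+APAP over control was 3.67, and without COS+APAP replicate 2 it was 6.86. *Chac1*, which breaks down glutathione, rose by 4.85 in APAP against control (edgeR adjusted p = 0.00734). *Ppp1r15a*, which restores translation after PERK signalling, was at 7.60 and 11.6 FPKM in COS+APAP and 28.2 and 26.9 FPKM in APAP and fell by 1.50 in COS+APAP against APAP (edgeR adjusted p = 0.0160; up to 0.0725 without COS+APAP replicate 2 or APAP replicate 1). The single gene that rose there was *Ddit4*, an inhibitor of mTORC1 signalling, by 1.64 (edgeR adjusted p = 0.0294; up to 0.116 without either COS+APAP library or APAP replicate 1).

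Markers of hepatocyte zones moved beside the members. The 13 pericentral markers, of hepatocytes around the central vein, summed to 4289 and 3414 FPKM in COS+APAP, 992 and 1464 FPKM in APAP, and 4171 and 3338 FPKM in control. *Cyp2e1* was the largest part of this sum, at 2773 and 2265 FPKM in COS+APAP, 816 and 1189 in APAP, and 2360 and 1644 in control. Of the 11 tested, 11 fell in APAP against control and 10 rose in COS+APAP against APAP, the order that *Sdf2l1*, *Pdia4* and *Manf* showed. These are 100% and 90.9% of the list, beside 22.1% lower and 11.2% higher of all tested genes. The 12 periportal markers summed to 5021 and 5119 FPKM in COS+APAP, 6689 and 6609 FPKM in APAP, and 3515 and 2903 FPKM in control. *Apoa4* alone was at 948 and 625 FPKM in COS+APAP, 3017 and 2233 in APAP, and 408 and 266 in control. Of the 12, 6 rose and 0 fell in APAP against control (50% and 0%, all tested genes 23.3% and 22.1%). In COS+APAP against APAP 2 rose and 4 fell (16.7% and 33.3%, all tested genes 11.2% and 11.1%). In bulk tissue fewer cells of a type and less RNA per cell cannot be told apart, and the part of the zones in the members' values was not tested. Sinusoidal endothelial markers summed to 35.9 and 33.0 FPKM in COS+APAP, 62.4 and 59.1 FPKM in APAP, and 50.6 and 55.4 FPKM in control. Of the 11 tested, 9 fell and 1 rose in COS+APAP against APAP (81.8% and 9.09%, all tested genes 11.1% and 11.2%). In APAP against control 5 rose and 0 fell (45.5% and 0%, all tested genes 23.3% and 22.1%). In COS+APAP against control 5 fell and 1 rose (45.5% and 9.09%, all tested genes 10.3% and 10.7%). Kupffer cell and monocyte markers summed to 93.7 to 102 FPKM in COS+APAP, 128 to 134 FPKM in APAP and 83.7 to 89.0 FPKM in control, stellate cell markers to 34.3 to 56.2, 90.6 to 98.3 and 79.4 to 85.5 FPKM, neutrophil markers to 2.61 to 3.90, 10.5 to 31.9 and 4.24 to 6.88 FPKM, and B and plasma cell markers to 70.5 to 83.0, 75.0 to 102 and 62.0 to 68.8 FPKM, in the same order of groups. The B and plasma cell sum was mostly *Sdc1*. This gene was at 46.6 and 48.5 FPKM in COS+APAP, 83.4 and 59.7 in APAP, and 45.2 and 43.6 in control. *Igkc* of that list averaged 21.9, 11.8 and 14.7 FPKM, lowest in APAP. In the Kupffer cell and monocyte sum *Cd14* averaged 2.18, 23.1 and 1.03 FPKM, and *Lyz2* 16.6, 19.7 and 23.5. Of 11 tested genes there 4 rose and 0 fell in APAP against control (36.4% and 0%, all tested genes 23.3% and 22.1%). In the stellate cell sum *Ecm1* was at 34.3 and 16.7 FPKM in COS+APAP, 39.85 and 41.5 in APAP, and 41.5 and 36.5 in control. Of 7 tested stellate markers 5 fell in COS+APAP against APAP (71.4%, all tested genes 11.1%). Against control 4 of these fell in COS+APAP (57.1%, all tested genes 10.3%), and 0 rose in either comparison. The part of these cell types in the members' values was not tested. Chaperone genes of mouse liver are known to follow feeding and the hour of the day, and the labels give no hour of collection. Of 16 tested clock genes 5 rose and 4 fell in APAP against control and 3 rose and 4 fell in COS+APAP against APAP (31.2% and 25%, and 18.8% and 25%, of the list; all tested genes 23.3% and 22.1%, and 11.2% and 11.1%), with *Dbp* at a log2 fold change of -4.09 and *Arntl* at 2.80 for APAP over control, both chosen after their values were seen; the part of the hour was not tested.

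Apart from the members, the tested genes whose profile over the 6 libraries was most like that of *Hspa5* were *Arl4a*, *Cln8*, *Angptl4*, *Rnf149* and *Sesn2*, with root mean square differences of 0.0989 to 0.256 between log2(FPKM + 1) values centred on their means. *Arl4a* was at 5.34 and 8.14 FPKM in COS+APAP, 12.1 and 9.02 FPKM in APAP, and 2.11 and 0.76 FPKM in control; as for *Hspa5*, the control libraries were lowest and APAP replicate 1 was highest. The genes most like *Sdf2l1* were *Rtp3*, *Cyp2c38*, *Rdx*, *Derl3* and *Gm12909*, at 0.107 to 0.279. *Rtp3* was at 15.7 and 14.8 FPKM in COS+APAP, 3.08 and 2.51 FPKM in APAP, and 24.2 and 24.7 FPKM in control, and *Derl3* is the degradation gene given above. These genes were picked for their likeness from 10051, and the 6 values of each share libraries and groups.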

How the data were processed

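HISAT2 2.0 and StringTie 1.3.0 are the tools that the submitters' processing notes name; build and strandedness are not given in the sources used here. Estimated counts and FPKM of each gene were deposited by the authors, per the file headers, and a further 6 value columns matched no sample and were not used. The estimated counts were whole numbers, and a count of 4 was more frequent than one of 3 in every library, so that counts divided by 4 were an alternative. Coordinates are as deposited; 9 of 10 members have the same span in GENCODE M21 (GRCm38). Exons of other genes overlap at most 10.3% of a member's exonic bases (*Hsp90b1*), and 24.7% for *Rnf5* and 16.3% for *Spcs1*.

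Genes with a mean of at least 1 FPKM (10051) were tested with edgeR 4.0.16 (R 4.3.3): TMM scaling, a quasi-likelihood F test, two-sided, 1 model of 3 groups over 6 libraries, Benjamini-Hochberg adjustment, and 3 residual degrees of freedom; calls have an adjusted p below 0.05. SE values were computed as |log2 fold change| / sqrt(F). The code was tested on simulated counts. Lists took the entry with the highest mean FPKM per symbol. Members, lists and tests were chosen with earlier results of these data known. Named genes are all members and, per list and comparison, up to 3 called genes in each direction by size, of which the text gives a part, and 3 sensor genes; likeness names 5 genes for each of *Hspa5* and *Sdf2l1*. Alternatives used DESeq2 1.42.0, limma 3.58.1 on log2(FPKM + 1) or log2(FPKM + 0.1), other scalings and filters, and each library left out. Protein sequences were not used here. Motif positions count from the RefSeq start site.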

Additional observations from a re-analysis of the deposited data

How the results depend on the processing

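No member called in a comparison changed its direction under any setting run; the log2 fold change of *Manf* for COS+APAP over control, not called and near 0, turned positive without the filter (0.0035), with a filter of 5 FPKM (0.009) and without control replicate 1 (0.09) or COS+APAP replicate 2 (0.15). Library totals moved the median log2 fold change of all genes by -0.15 for APAP over control and -0.18 for COS+APAP over control, upper quartile factors by -0.12 for APAP over control and 0.11 for COS+APAP over APAP, and limma on FPKM by -0.10 to -0.15 in both comparisons with control. The share of all called genes that were higher then was 39.9% with library totals, beside 51.3%, for APAP over control and 30.0%, beside 50.9%, for COS+APAP over control, and was 62.8% with upper quartile factors, beside 50.2%, for COS+APAP over APAP. With a filter of 5 FPKM 2301, 1093 and 1295 genes were called for APAP over control, COS+APAP over APAP and COS+APAP over control, where fewer genes were tested, beside 4561, 2249 and 2109; DESeq2 called 3552 for COS+APAP over APAP and 3421 for COS+APAP over control. Of the members, COS+APAP over control had 2 called without the filter, 8 with DESeq2 and 3 with the 4 libraries alone, beside 5; the lower ones numbered 4 with library totals, DESeq2 or limma at either pseudocount, 0 without the filter and 1 with the 4 libraries alone, beside 2 (the cause was not tested). Of the other ER genes, 8 were lower in COS+APAP against APAP without the filter and with 5 FPKM and 20 with DESeq2, beside 13; in COS+APAP against control 30 were called without the filter, 3 of them lower, beside 47 and 10, and 17 were lower with library totals. Leaving out each library gave, for APAP over control, 3033 to 4117 called genes, 8 to 10 called members (3 to 5 higher, 5 lower) and 55 to 69 other ER genes (27 to 37 higher, 28 to 32 lower). For COS+APAP over APAP it gave 612 to 1941 genes, 2 to 4 members (1 to 3 higher, 1 lower) and 18 to 50 other ER genes (12 to 39 higher, 6 to 11 lower). For COS+APAP over control it gave 590 to 1716 genes, 0 to 4 members (0 to 4 higher, 0 to 1 lower) and 18 to 36 other ER genes (15 to 29 higher, 3 to 8 lower). Of the called other genes named by the rule, 25 of 31, 9 of 27 and 11 of 28 kept their call without each library in these comparisons. Control and APAP share replicate numbers 1 and 3, which the labels do not explain; the difference between the numbers correlated at r = -0.005 across genes, and with a replicate block 3334 genes, all 10 members (5 higher, 5 lower) and 58 other ER genes (29 higher, 29 lower, beside 43 and 31) were called; COS+APAP shares fewer than 2 numbers with either group, and no such fit was made for it. Counts divided by 4 and RLE factors changed no result beyond these limits. Each group rests on 2 libraries, and a library left alone in its group is assumed to vary like the others.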

Other observations

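The libraries of a group differed together across the members. COS+APAP replicate 3 was above replicate 2 for 10 of 10 members, while 48.2% of all tested genes were higher there. Control replicate 1 was above replicate 3 for 9 of 10 members, all but *Xbp1*, against 48.8% of tested genes, and APAP replicate 1 was above replicate 3 for 8 of 10, all but *Herpud1* and *Xbp1*, against 41.8%. The spread was widest for *Hspa5* in control, where the higher library had 1.90 times the FPKM of the lower, for *Dnajb9* in COS+APAP (1.85 times) and for *Herpud1* in control (1.85 times), and narrow for *Sdf2l1*, at 1.10 times in COS+APAP, 1.10 times in APAP and 1.15 times in control. In the PERK and ATF4 branch COS+APAP replicate 3 was above replicate 2 for 12 of 18 genes, with *Atf3* at 99.6 and 11.1 FPKM. The same count, 12 of 18, was higher in replicate 1 than in replicate 3 of APAP, and likewise of control.

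The deposited KEGG annotation of protein processing in the ER held 136 tested genes beside the members. Of these 44 rose and 22 fell in APAP against control, 33 rose and 19 fell in COS+APAP against APAP, and 26 rose and 12 fell in COS+APAP against control, with median log2 fold changes of 0.12, 0.06 and 0.23. As shares of the 136 these are 32.4% higher and 16.2% lower (all tested genes 23.3% and 22.1%), 24.3% and 14% (11.2% and 11.1%), and 19.1% and 8.82% (10.7% and 10.3%).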
